A study of Mus musculus with 9 samples.

Results

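Hydroxynorketamine was compared with saline in defeated BALB/c mice by RNA sequencing of a midline thalamic region, the anterior paraventricular nucleus. The comparison takes 6 of the 9 libraries of the study, 3 from mice exposed to 5 days of social defeat stress and given (2S,6S)-hydroxynorketamine (SHNK) and 3 from mice that went through the same defeat and received saline. The other 3 libraries are from non-stressed mice given saline, and they serve here as a reference level. Members were chosen by their labels alone, and all 18194 genes that passed a filter on low counts were tested. Dose, route, sex, age and the time between injection and dissection are not stated in the labels. The labels call the libraries replicates and do not say whether each is a separate animal, so the p-values speak only to the spread among these libraries, which may be technical. Libraries are named by group and replicate number, and values listed for a group follow that order.

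Ketamine is broken down to norketamine and then to hydroxynorketamines, among which (2S,6S)-hydroxynorketamine is 1 stereoisomer. In social defeat a mouse is exposed to an aggressive one, a stress that rodents respond to with avoidance and other lasting changes. The paraventricular nucleus is a midline group of glutamatergic neurons just below a ventricle that projects to the accumbens, amygdala and cortex. The medial habenula lies directly beside it and is known for neurons that release acetylcholine, substance P or neurokinin B, and ciliated ependyma and choroid plexus line the ventricle above both. Relay nuclei of the thalamus flank it on the other side.

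Total counts ran from 34955518 to 51569143 over the 6 libraries and reached down to 32307869 in the non-stressed group. The table lists each of its 18956 symbols with a count of at least 1 in every library. Markers of the labelled tissue were present throughout. Calb2, the calcium-binding protein calretinin, was at 1680, 2200 and 2410 CPM (a gene's reads scaled to a common library size) with saline and at 2060, 1690 and 1760 with SHNK, and Slc17a6, the vesicular glutamate transporter of thalamic neurons, was between 483 and 711 CPM in the same 6. On a list of 18 genes of paraventricular thalamic neurons 0 rose and 1 fell (Npffr1, a neuropeptide FF receptor), against 6.41% of all genes called in either direction. The fall of Npffr1 (-0.55 ± 0.14, standard error; adjusted p = 0.0370) was not called without saline library 2 or 3 or SHNK library 1, 2 or 3 (adjusted p = 0.133, 0.0796, 0.0633, 0.128 and 0.136). The median log2 fold change of the list was 0.040, and that of all tested genes was -0.0090. On the first principal component, with 30.1% of the variance, the saline libraries lay between 20.09 and 37.74 and the SHNK libraries between -34.57 and -11.28.

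SHNK libraries held much less RNA of habenular genes and less of ependymal genes and of some choroid plexus and astrocyte genes. They held moderately more of genes listed for other thalamic nuclei and of several GABA-A receptor subunits. In edgeR's quasi-likelihood test, at a Benjamini-Hochberg adjusted p under 0.05 over all genes, 446 genes (2.45%) rose and 721 (3.96%) fell. Falls were the larger changes. Of the called genes 260 were at least 2-fold lower and 12 at least 2-fold higher, 29 were at least 8-fold lower, and the median log2 fold change was -0.78 for falls and 0.40 for rises. The 2 groups did not overlap in 1162 of the 1167 called genes, and the same held for 30.4% of all tested genes. The number of calls leaned on single libraries. It was 653, 367 and 718 without saline library 1, 2 or 3, and 238 and 176 without SHNK library 2 or 3. Of the 190 named genes that were called, 68 passed with any single library dropped from the fit (9 fits), and those carry most of the account here.

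**Figure D1:**
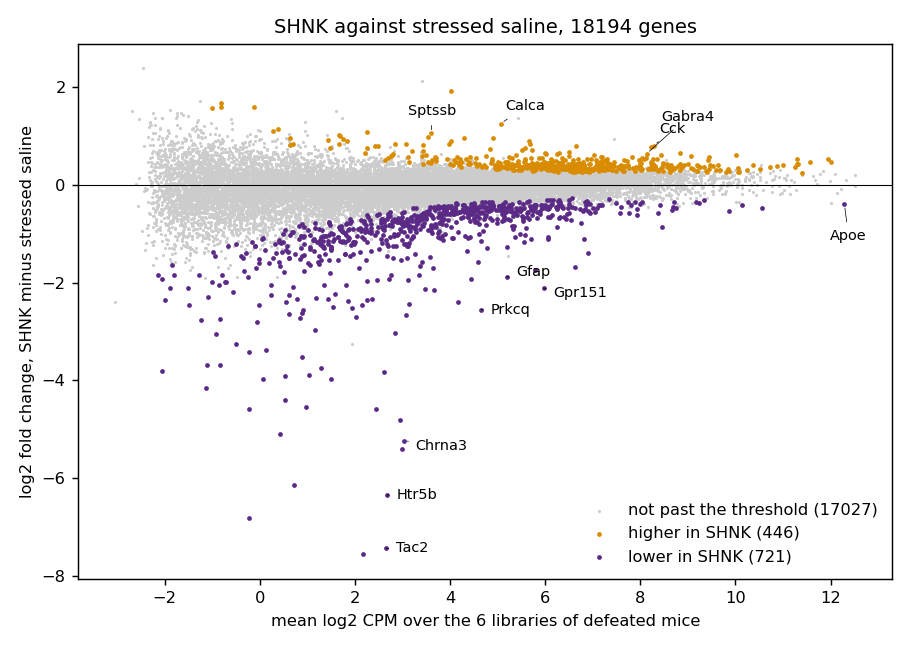
Log2 fold change of SHNK over stressed saline against the mean log2 CPM of the 6 libraries, 1 point a gene. Orange points are the 446 genes called higher and purple points the 721 called lower (adjusted p under 0.05); falls reach far below -2 while nearly all rises stay under 1.

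Rises were more frequent among genes of a high general level, and falls among genes of a middle level. Among the 1627 genes with a mean log2 CPM above 7, 164 rose and 32 fell. Among the 4601 genes at or under 1, 9 rose and 102 fell. Above 1 and up to 3 there were 18 rises and 199 falls among 3286 genes. Above 3 and up to 5 there were 57 rises and 247 falls among 4551. The median log2 CPM was 6.50 for called rises, 3.44 for called falls and 3.60 for all tested genes. Base composition differed as well. The median GC content of the longest transcript was 45.1% for rises, 54.5% for falls and 49.8% for all genes, with a value for 98%, 96.5% and 91.9% of them. The part of level and base composition in the calls was not tested.

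Marker lists of regions and cell types were compared between the groups. Of 16 tested genes enriched in the habenula, 14 fell and 0 rose, with a median log2 fold change of -2.42 and groups that did not overlap in all 16, where 15.9% of all genes were lower without overlap. The mean log2 CPM of the list was 3.80, 5.25 and 4.52 in the saline libraries and 1.70, 1.26 and 1.25 in the SHNK libraries. Non-stressed libraries lay between at 2.37, 2.47 and 3.26. The summed level of the 16 genes ran from 403.1 to 1028 CPM with saline, from 160.1 to 188.2 CPM with SHNK and from 194.6 to 268.4 CPM without stress. Saline library 2 held the most and saline library 1 the least of the 3, a spread of over 2-fold within that group. The table holds no symbol with a 0, so absence of a marker could not be seen in it. The other 5 genes of the list, the nicotinic subunits Chrnb4, Chrnb3, Chrna6 and Chrna2 and the acetylcholine carrier Slc18a3, have no symbol in the table. They could not be tested. In bulk tissue fewer cells of a type and less RNA per cell cannot be told apart, and neither can a treatment effect and a difference in how much bordering tissue each dissection took in. The part of this shift in the other gene groups was not tested.

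**Figure D2:**
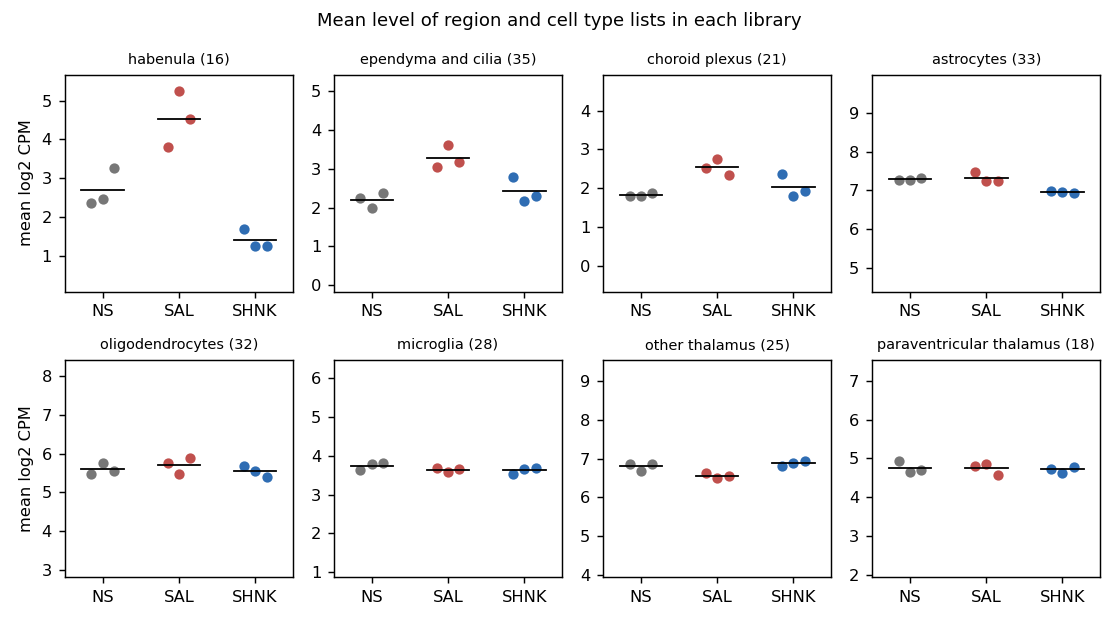
Mean log2 CPM of 8 marker lists in each library (points) with group means (lines), for non-stressed saline (NS), stressed saline (SAL) and stressed SHNK; each panel spans the same log2 range and gives the number of genes tested. Habenula genes separate the groups most, ependyma and choroid plexus genes have their highest group means with SAL, and oligodendrocyte, microglia and paraventricular genes overlap. For choroid plexus SHNK library 1 lies inside the SAL range.

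Signalling genes of the medial habenula fell by large amounts. Tac2 (chr10:127724478-127731768), the precursor of neurokinin B, was at 38.6, 155 and 83.7 CPM with saline and at 0.652, 0.656 and 0.217 CPM with SHNK. It was nearly lost from all 3 SHNK libraries, a log2 fold change of -7.44 ± 0.70 (adjusted p = 0.000187; -6.84 without saline library 2). Non-stressed mice had 4.41, 7.83 and 20.8 CPM. The 250 bases before the start of Tac2 in the RefSeq annotation of GRCm38.p6 (chr10:127724228-127724477, plus strand) are printed because this gene had the largest fall among named genes.
Tac2: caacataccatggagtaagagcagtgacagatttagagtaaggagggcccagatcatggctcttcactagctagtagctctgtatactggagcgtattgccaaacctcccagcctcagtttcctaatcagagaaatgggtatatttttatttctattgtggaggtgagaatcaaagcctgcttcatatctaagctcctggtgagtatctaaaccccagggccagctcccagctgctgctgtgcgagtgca
The window holds no match, on either strand, to AAAGGTCA, the element that NR4A nuclear receptors bind, or to ATNATTAAT, a site of POU4F factors. Of the 14 called habenula genes 11 have a window in the table, and 0 of these hold either motif, where 1.19% and 0.527% of tested genes with a window do. That says only that these letters are not in these 250 bases.

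Htr5b (chr1:121509758-121529312), a serotonin receptor largely restricted to the habenula in the rodent forebrain, went from 30.9, 94.3 and 62.3 CPM to 1.05, 0.259 and 1.06 CPM (-6.34 ± 0.62, adjusted p = 0.000187). Nwd2 (chr5:63649103-63810546) stood at 24.0, 89.1 and 51.0 CPM with saline and at 1.41, 1.29 and 1.17 CPM with SHNK (-5.40 ± 0.53, adjusted p = 0.000187). Nppa, which encodes atrial natriuretic peptide, had the smallest adjusted p of all genes. It was at 6.28, 19.2 and 14.5 CPM with saline and at 0.231, 0.179 and 0.136 CPM with SHNK (-6.15 ± 0.47, adjusted p = 5.76e-05). Gpr151, an orphan G protein-coupled receptor found on habenular axons, kept a clear level with SHNK (30.7, 28.6 and 34.1 CPM) but was at 78.5, 194 and 130 CPM with saline (-2.11 ± 0.23, adjusted p = 0.000425). All 3 SHNK values of each of these genes lay below all saline values, and the calls held in all 9 fits that left out 1 library. Tac1, the substance P precursor that other neurons also express, changed less (-0.68 ± 0.16, adjusted p = 0.0278), and its call was lost without saline library 2 or SHNK library 1, 2 or 3 (adjusted p = 0.110, 0.0600, 0.128 and 0.0526).

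The acetylcholine machinery fell in part. Of 22 listed genes of acetylcholine neurons and receptors, 14 have a symbol in the table and were tested. Among these 4 fell and 1 rose (35.7% called, against 6.41% of all genes). Without SHNK library 2 or 3, 3 fell with no rise. Chrna3 (chr9:55010117-55026562), the alpha 3 nicotinic receptor subunit, went from 26.0, 92.1 and 43.9 CPM to 1.96, 1.31 and 0.978 CPM (-5.23 ± 0.53, adjusted p = 0.000210; -4.60 without saline library 2). Slc5a7, the transporter that takes choline up for acetylcholine synthesis, was at 5.69, 19.0 and 8.28 CPM with saline and at 1.89, 2.27 and 1.82 CPM with SHNK (-2.46 ± 0.37, adjusted p = 0.00347; -1.80 without saline library 2). Chat, the synthesising enzyme, had raw counts of 236, 1125 and 381 with saline and of 63, 13 and 2 with SHNK, the widest spread inside a treated group among these genes. The summed counts give a ratio of 0.0411 after scaling to library size (95% exact interval 0.0323 to 0.0516, counting error only). Its fitted change was -4.54 ± 0.84 (adjusted p = 0.00861), it was -3.79 without saline library 2 and -6.27 without SHNK library 1, and the call was lost without SHNK library 2 or 3 (adjusted p = 0.0517 and 0.0568). Gfra1, a receptor for GDNF, fell by 1.92 ± 0.27 (adjusted p = 0.00207). Chrna4, the subunit of the main brain nicotinic receptor, was the 1 rise (0.31 ± 0.085, adjusted p = 0.0464), and it was not called without non-stressed library 1, saline library 1 or 2, or any 1 SHNK library (adjusted p = 0.0552, 0.104, 0.177, 0.0781, 0.163 and 0.129).

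Transcription factors that specify or mark habenular neurons fell with these genes. Of 15 tested, 9 fell and 1, Mef2c, rose (66.7% called, against 6.41% of all genes). Nr4a2, the orphan nuclear receptor Nurr1, was at 20.6, 75.2 and 39.3 CPM with saline and at 2.21, 1.61 and 0.896 CPM with SHNK (-4.81 ± 0.46, adjusted p = 0.000187; -4.22 without saline library 2). Pou4f1, the POU homeobox factor Brn3a that habenular neurons need for their identity, was down to raw counts of 4, 2 and 3 against 129, 667 and 231. The scaled ratio was 0.00804 (95% exact interval 0.00367 to 0.0153, counting error only), and the fitted change of -6.81 was -6.04 without saline library 2. The Iroquois homeobox genes moved together. Irx2 fell by 2.43 ± 0.25 (adjusted p = 0.000292), Irx3 by 1.92 ± 0.28 (adjusted p = 0.00274) and Irx5 by 1.41 ± 0.19 (adjusted p = 0.00117). Their neighbour in the family Irx1 was at -1.25 ± 0.35, a call present in 1 of the 9 fits with a library left out (highest adjusted p = 0.194). Neurod1, a neuronal bHLH factor, fell by 1.48 ± 0.25 (adjusted p = 0.00525) and the LIM-only cofactor Lmo3 was at -1.85 ± 0.30 (adjusted p = 0.00496). Mef2c, a factor of activity-dependent transcription in many neurons, went the other way (0.52 ± 0.12, adjusted p = 0.0183; lost without saline library 2 or 3 or SHNK library 3, adjusted p = 0.0644, 0.0617 and 0.109).

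The 15 largest falls under the naming rule included other genes that were at their lowest in all SHNK libraries. The secreted EGF-domain protein Scube1 fell from 12.6, 45.9 and 25.6 CPM to 1.03, 1.31 and 1.14 CPM (-4.59 ± 0.51, adjusted p = 0.000425). Kcng4, a modulatory potassium channel subunit that forms no channel by itself, was at 13.2, 37.7 and 21.5 CPM with saline and at 1.75, 1.93 and 1.38 CPM with SHNK (-3.83 ± 0.35, adjusted p = 0.000171). Prkcq, protein kinase C theta, went from 35.8, 100 and 55.1 CPM to 12, 9.59 and 11.1 CPM (-2.55 ± 0.29, adjusted p = 0.000472). In each of these genes saline library 2 was the highest and saline library 1 the lowest of its group, the order that the habenula list also had. The others were the lectin Clec18a (-3.96; -3.34 without saline library 2), the vesicle proteins Sytl1 (-3.90) and Syt6 (-3.75), the tetraspanin Tspan18 (-3.02), the actin-binding Klhl1 (-2.96) and Lsp1 (-2.66), and Pld5 of the phospholipase D family (-2.69). Each of the 15 passed with every library left out in turn. How far they share a source with the habenula genes was not tested.

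**Figure D3:**
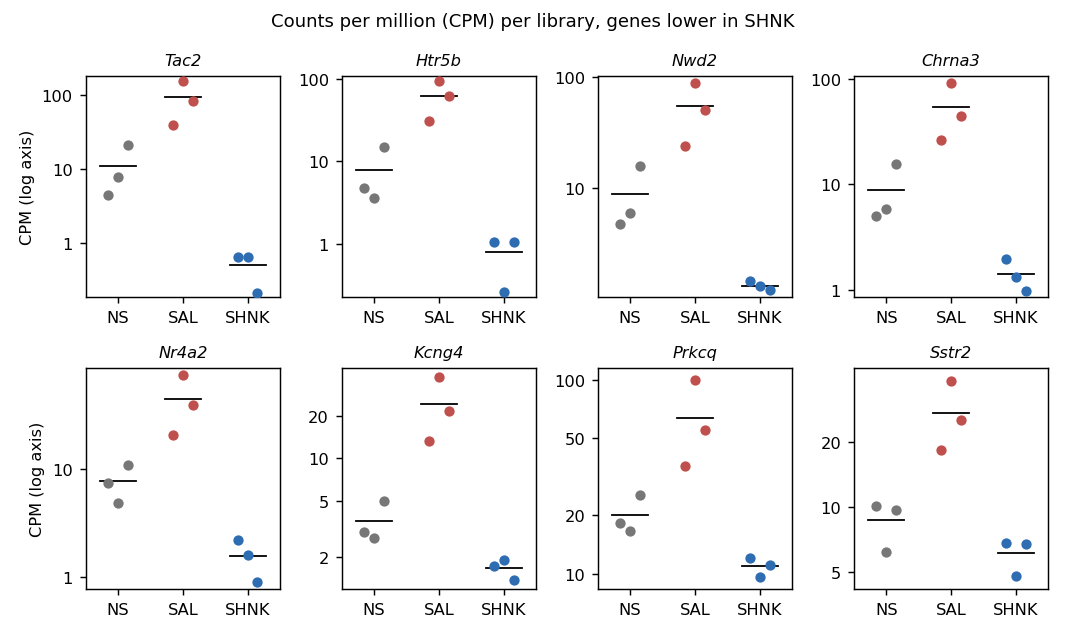
CPM in each library (points) with group means (lines) for 8 genes called lower in SHNK, on log axes, for non-stressed saline (NS), stressed saline (SAL) and stressed SHNK. In all 8 the SHNK libraries lie lowest, the SAL libraries highest and the NS means between.

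Peptide receptors followed a mixed pattern in which the falls were deeper than the rises. Of 32 tested neuropeptide receptor genes 5 fell and 2 rose (21.9%, against 6.41% of all genes). Of 36 precursors 4 fell and 3 rose (19.4%). Without saline library 2, SHNK library 2 or SHNK library 3 the calls in all were 3, 4 and 3 for receptors and 4, 3 and 4 for precursors. Sstr2, a somatostatin receptor, was at 18.3, 38.1 and 25.3 CPM with saline and at 6.81, 4.79 and 6.73 CPM with SHNK (-2.16 ± 0.25, adjusted p = 0.000570). Tacr1, the substance P receptor, fell by 2.55 ± 0.41 (adjusted p = 0.00465). Adcyap1, which encodes PACAP, went from 17.1, 26.2 and 23.5 to 13.8, 10.2 and 12.7 CPM (-0.87 ± 0.16, adjusted p = 0.00869; 0.0533 without SHNK library 2). Cck, the cholecystokinin precursor, was the abundant peptide gene that rose, from 230, 209 and 277 CPM to 343, 445 and 465 CPM (0.81 ± 0.14, adjusted p = 0.00639). Non-stressed libraries had 257, 357 and 321 CPM of Cck, a range that overlaps both defeated groups. Ramp3, which joins the calcitonin receptor-like receptor to form an adrenomedullin receptor, rose from 216, 216 and 264 to 319, 340 and 357 CPM (0.55 ± 0.091, adjusted p = 0.00525). Calca, the CGRP and calcitonin gene, had the largest fitted rise under the naming rule (1.26 ± 0.26, adjusted p = 0.0146), with 32.9, 15.2 and 19.4 CPM against 39.6, 55.5 and 66.7 CPM, but missed the threshold without saline library 2 or SHNK library 2 or 3 (adjusted p = 0.0598, 0.0565 and 0.0935).

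Among 30 monoamine receptor and transport genes 3 fell and 1 rose (13.3%, against 6.41% of all genes). Without SHNK library 3, 1 fell and 1 rose. Htr2c, the serotonin 2C receptor, was at 35.2, 30.5 and 28.2 CPM with saline and at 47.7, 44.0 and 47.4 CPM with SHNK (0.57 ± 0.10, adjusted p = 0.00743), and it kept the call with each library left out. Th, tyrosine hydroxylase, was low throughout and fell from 2.17, 7.09 and 5.94 to 1.39, 0.378 and 0.679 CPM (-2.63 ± 0.48, adjusted p = 0.00822), a call lost without SHNK library 3 (adjusted p = 0.0610) and a value of -3.28 without SHNK library 1. Drd2, the dopamine receptor used as a paraventricular marker, did not pass (-0.46 ± 0.20, adjusted p = 0.183), though limma voom called it (adjusted p = 0.0410).

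Genes of ciliated ependyma were lower with SHNK, and 17 of 35 tested fell with 0 rising, where 3.96% of all genes fell. All 35 fold changes were below 0, with a median of -0.88. In 30 of the 35 the groups did not overlap, where 15.9% of all genes were lower without overlap. The count of calls rested on few libraries, since it was 5 without saline library 2, 3 without SHNK library 2 and 1 without SHNK library 3. The mean log2 CPM of the list was 3.28 ± 0.30 (SD, n = 3) with saline, 2.43 ± 0.33 with SHNK and 2.21 ± 0.19 without stress, so SHNK libraries were near the non-stressed level. Tctex1d4, a dynein light chain family member, went from 10.2, 16.6 and 13.8 to 7.70, 4.49 and 4.81 CPM (-1.25 ± 0.23, adjusted p = 0.00807; 0.0591 without SHNK library 3). Ccdc153 was at 45, 69.0 and 52.6 CPM with saline and at 36.8, 24.3 and 28.6 CPM with SHNK (-0.89 ± 0.16, adjusted p = 0.00807; 0.0568 without SHNK library 3). Hdc, the enzyme that makes histamine, is on this list and on that of the hypothalamus and fell by 1.07 ± 0.19 (adjusted p = 0.00674; 0.0532 without SHNK library 3). The master regulator of motile cilia, Foxj1, did not pass (-1.10 ± 0.43, adjusted p = 0.143). In every one of these genes SHNK library 1 was the highest of its group, as it was for the list.

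RFX factors, which switch on genes of cilia, bind the X-box, and its half-site GTTGCCA was looked for on both strands in the same kind of 250-base window. Of the 17 called ependymal genes 13 have a window, and 2 of the 13 (15.4%) hold the half-site, against 4.20% of the 13096 tested genes with a window and 4.19% of all genes in the table. Iqca, a gene with an IQ motif and an AAA domain, fell by 0.88 ± 0.21 (adjusted p = 0.0240), and Tekt1, a tektin of ciliary microtubules, by 0.81 ± 0.17 (adjusted p = 0.0166). Both calls were lost without saline library 2 or SHNK library 2 or 3 (adjusted p = 0.106, 0.118 and 0.131 for Iqca and 0.0759, 0.0881 and 0.103 for Tekt1). A gene was counted if any of its windows held the half-site, and another window of Tekt1 does not hold it. The windows of Iqca and Tekt1 with a match, both on the minus strand of GRCm38.p6 in RefSeq (chr1:90153437-90153686 and chr11:72361883-72362132), are printed with the half-site in capitals, since these genes are the members in which the letters occur.
Iqca: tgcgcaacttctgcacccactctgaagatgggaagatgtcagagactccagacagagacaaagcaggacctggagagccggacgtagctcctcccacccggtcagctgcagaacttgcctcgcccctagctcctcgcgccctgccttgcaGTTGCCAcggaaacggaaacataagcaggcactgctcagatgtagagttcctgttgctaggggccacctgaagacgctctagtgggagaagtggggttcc
Tekt1: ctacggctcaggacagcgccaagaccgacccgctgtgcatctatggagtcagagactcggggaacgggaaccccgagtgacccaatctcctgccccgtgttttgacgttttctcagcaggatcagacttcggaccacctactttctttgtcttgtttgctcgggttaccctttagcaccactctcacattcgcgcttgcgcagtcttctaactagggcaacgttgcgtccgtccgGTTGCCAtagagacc
A match describes the letters and is no evidence of binding.

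Choroid plexus genes gave 7 falls and 0 rises among 21 tested (33.3% called, against 6.41% of all genes), with a median of -0.70. The list's mean log2 CPM was 2.33 to 2.74 with saline and 1.80 to 2.37 with SHNK, and SHNK library 1 lay inside the saline range. The count was 4 without non-stressed library 1 or saline library 3, 2 without saline library 2 and 1 without SHNK library 2 or 3. Rdh5, a retinol dehydrogenase, fell from 27.4, 26.7 and 28.7 to 15.1, 18.0 and 16.5 CPM (-0.74 ± 0.12, adjusted p = 0.00520) and was called in all 9 fits. Msx1, a homeobox factor, was at 12.7, 15.1 and 13.1 CPM with saline and at 9.36, 5.57 and 5.02 CPM with SHNK (-1.03 ± 0.20, adjusted p = 0.0118; 0.0510, 0.0661 and 0.0752 without saline library 2 or SHNK library 2 or 3). The defining product of the choroid plexus, transthyretin (Ttr), did not pass and its values overlapped, at 33.5, 39.8 and 15.6 CPM with saline and 53.3, 35.2 and 42.2 CPM with SHNK (0.55 ± 0.27, adjusted p = 0.241).

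Astrocyte genes fell in part, 11 of 33 with 0 rises (33.3% called, against 6.41% of all genes) and a median of -0.32. The falls were 5 without SHNK library 2 and likewise without SHNK library 3. Gfap, the intermediate filament of reactive astrocytes, was at 66.8, 85.0 and 73.7 CPM with saline and at 34.8, 14.9 and 11.1 CPM with SHNK, with no overlap (-1.89 ± 0.29, adjusted p = 0.00393; -2.53 without SHNK library 1). Its non-stressed values of 25.1, 26.2 and 27.6 CPM lay inside the SHNK range. The list as a whole differed from Gfap in this. Its mean log2 CPM was 6.94 to 6.98 with SHNK, below both the 7.26 to 7.31 without stress and the 7.23 to 7.48 with saline. The water channel Aqp4 fell from 95.0, 120 and 92.8 to 58.5, 50.4 and 62.2 CPM (-0.85 ± 0.13, adjusted p = 0.00371). Sox9, a transcription factor of astrocytes, fell by 0.66 ± 0.11 (adjusted p = 0.00525). Clu, which encodes the secreted chaperone clusterin, fell from 1940, 1700 and 1730 to 1280, 1280 and 1300 CPM (-0.47 ± 0.078, adjusted p = 0.00496). These 4 calls held with each library left out. The main glutamate transporter of astrocytes Slc1a2 (-0.060 ± 0.13, adjusted p = 0.827) and glutamine synthetase Glul (0.050 ± 0.11, adjusted p = 0.832) did not pass. Other glial lists gave few calls, against 6.41% of all genes. Of 32 oligodendrocyte genes 1 fell (Adamts4, a protease), and 4 fell without saline library 2, but none without saline library 1 or 3 or SHNK library 2 or 3. Of 18 genes of oligodendrocyte precursors 0 were called by edgeR, 2 by DESeq2 and 3 by limma voom. At an unadjusted p under 0.05, 6 were lower and 1 higher, and edgeR called 1 without non-stressed library 3 or saline library 3. Of the 18 fold changes 16 were below 0, with a median of -0.27. The mean log2 CPM of this list was 4.12 to 4.33 with SHNK, 4.40 to 4.50 with saline and 4.36 to 4.58 without stress. Of 28 microglia genes 0 were called by edgeR, DESeq2 or limma voom, and 2 were at an unadjusted p under 0.05.

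Genes of the thalamic relay nuclei rose, 12 of 25 tested with 0 falls, a median of 0.37 and higher values without overlap in 15, where 14.4% of all genes were higher without overlap. There were 7 calls without saline library 2 and 4 without SHNK library 2 or 3. The list's mean log2 CPM was 6.56 ± 0.064 (SD, n = 3) with saline, 6.88 ± 0.054 with SHNK and 6.80 ± 0.094 without stress. Plekhg1, a guanine nucleotide exchange factor, went from 33.9, 32.1 and 35.1 to 51.8, 54.2 and 49.7 CPM (0.62 ± 0.085, adjusted p = 0.00169). Calb1, the calcium buffer calbindin, was at 468, 430 and 409 CPM with saline and at 574, 629 and 762 CPM with SHNK (0.59 ± 0.10, adjusted p = 0.00560). Kcnc2, a fast potassium channel of the Kv3 family, rose from 67.1, 57.3 and 66.1 to 86.1, 92.9 and 89.4 CPM (0.49 ± 0.085, adjusted p = 0.00633). These 3 and Ramp3 passed with every library left out. Prkcd, protein kinase C delta, a marker of sensory relay neurons, rose from 352, 316 and 422 to 559, 553 and 613 CPM (0.66 ± 0.14, adjusted p = 0.0151), but not without saline library 2 or SHNK library 2 or 3 (adjusted p = 0.0693, 0.0524 and 0.0883). Tcf7l2 and Gbx2, factors of thalamic neurons in general, were at 0.12 ± 0.097 and 0.090 ± 0.079 and did not pass (adjusted p = 0.516 and 0.557).

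The largest rises under the naming rule were far smaller than the falls. Of the 15, 4 passed in all 9 fits with a library left out. Sptssb (chr3:69819538-69861363), a small subunit of serine palmitoyltransferase, which starts sphingolipid synthesis, went from 8.83, 7.20 and 9.46 to 14.3, 18.8 and 20.0 CPM (1.06 ± 0.15, adjusted p = 0.00169). Nexn, the actin-binding nexilin, was at 14, 12 and 16.5 CPM with saline and at 24.8, 29.3 and 28.7 CPM with SHNK (0.96 ± 0.13, adjusted p = 0.00180). The opsin Opn3 rose from 12, 11.1 and 12 to 20.0, 22 and 20.7 CPM (0.84 ± 0.11, adjusted p = 0.000944), the tightest groups among these genes. Spp1, the matrix protein osteopontin, rose from 43.9, 32.9 and 34.7 to 56.0, 70.8 and 82.9 CPM (0.91 ± 0.16, adjusted p = 0.00583). Non-stressed values lay between the defeated groups for Sptssb (11.4, 12.2 and 11.2 CPM) and Opn3 (15.3, 16.2 and 13.6 CPM) and overlapped at least 1 of them for Nexn and Spp1. The remaining 11 included Calca, Trim40, Krt12, Smpx, Endou, Adm, Cks2, Snx20 and Srpx2, and each of the 11 lost its call when 1 of at least 2 libraries was left out.

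**Figure D4:**
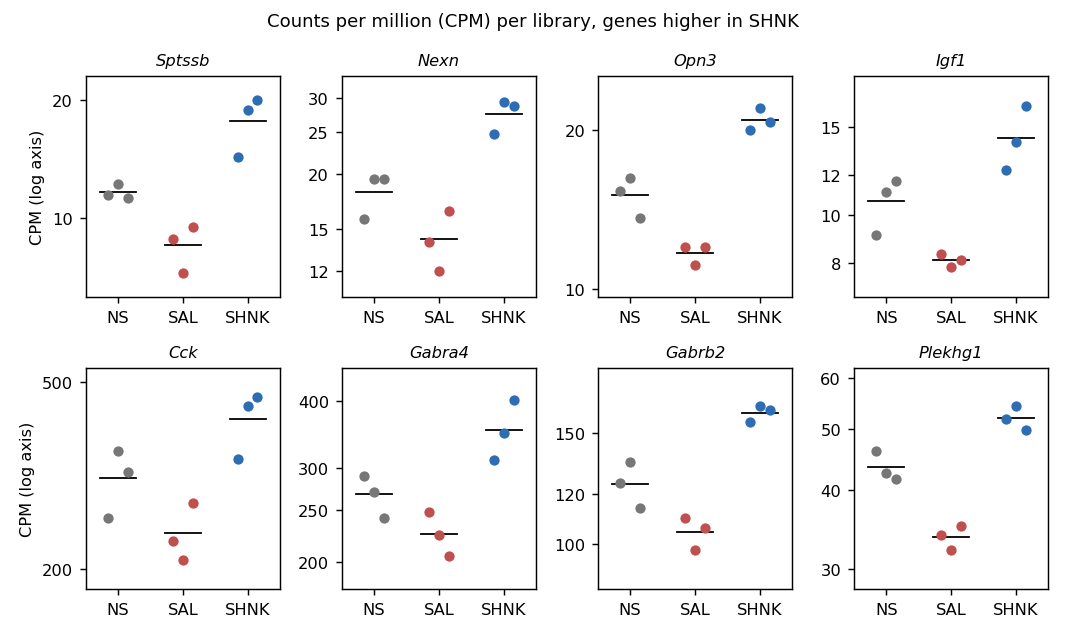
CPM in each library (points) with group means (lines) for 8 genes called higher in SHNK, on log axes, for non-stressed saline (NS), stressed saline (SAL) and stressed SHNK. In all 8 the SHNK libraries lie above the SAL libraries and the NS means lie between.

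GABA-A receptors are chloride channels of 5 subunits, and those holding alpha 4 with delta sit outside synapses and carry tonic inhibition in the thalamus. Of 14 subunit genes tested 4 rose and 0 fell (28.6% called, against 6.41% of all genes). All 14 fold changes were above 0, with a median of 0.20, where 8852 of all 18194 genes were above 0. The count of calls was 2 without SHNK library 2 or 3. Gabra4 (chr5:71569734-71658308), the alpha 4 subunit, was at 248, 225 and 205 CPM with saline and at 310, 349 and 401 CPM with SHNK (0.64 ± 0.11, adjusted p = 0.00496). Gabrb2 (chr11:42419515-42632591), the beta 2 subunit, was at 110, 97.8 and 106 CPM with saline and at 156, 165 and 163 CPM with SHNK (0.62 ± 0.083, adjusted p = 0.00134). Both calls held in all 9 fits, and the non-stressed ranges, 242 to 290 CPM for Gabra4 and 114 to 135 CPM for Gabrb2, lay below the SHNK ranges. Gabrd, the delta subunit, rose from 100, 89.1 and 125 to 144, 156 and 153 CPM (0.53 ± 0.11, adjusted p = 0.0141; 0.0623, 0.0675 and 0.0736 without saline library 2 or SHNK library 2 or 3). Gabra5, the alpha 5 subunit, did not pass (0.19 ± 0.11, adjusted p = 0.326). These rises were measured in the libraries in which genes listed for other thalamic nuclei were also higher, and the part of the one in the other was not tested. The GABA-synthesising enzymes Gad1 and Gad2 overlapped between the groups (-0.16 ± 0.58 and 0.15 ± 0.28, adjusted p = 0.903 and 0.795).

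Among the auxiliary subunits of GABA-B receptors the calls went both ways. Kctd16 rose by 0.54 ± 0.11 (adjusted p = 0.0123; 0.0602 and 0.0706 without saline library 2 or SHNK library 3). Kctd8, an auxiliary subunit strongly expressed in the medial habenula, fell by 1.06 ± 0.20 (adjusted p = 0.0106; 0.0590 and 0.0568 without SHNK library 2 or 3), in libraries whose habenula list was lower. They and Kctd12b were the 3 calls among 20 genes of GABA synthesis, transport and GABA-B signalling (15%, against 6.41% of all genes). There was 1 call left without saline library 2, SHNK library 2 or SHNK library 3.

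Glutamate receptor genes gave 1 rise and 3 falls among 28 ionotropic genes and 1 rise and 1 fall among 10 metabotropic ones, or 14.3% and 20% called against 6.41% of all genes. The ionotropic calls were 2, 1 and 0 without saline library 3, SHNK library 2 or SHNK library 3, and 1 metabotropic call was left without saline library 1 or 2 or any 1 SHNK library. Gria1, the GluA1 subunit of AMPA receptors, went from 283, 245 and 250 to 198, 204 and 186 CPM (-0.41 ± 0.079, adjusted p = 0.0107; 0.0682 without SHNK library 3), and its non-stressed values of 251 to 262 CPM lay with the saline group. Grm2 did not pass (-0.23 ± 0.11, adjusted p = 0.227). On the presynaptic list 4 of 48 rose and 3 fell (14.6%). There were 2 rises and 1 fall without SHNK library 3, and 3 rises and 1 fall without saline library 2 or SHNK library 2. Syt1, the calcium sensor of fast release, rose from 412, 373 and 383 to 505, 541 and 539 CPM (0.44 ± 0.074, adjusted p = 0.00560), and Nrxn3, a presynaptic adhesion molecule, from 62.6, 57.3 and 64.0 to 92.7, 86.6 and 107 CPM (0.64 ± 0.10, adjusted p = 0.00410). Syt15, another synaptotagmin, fell from 3.46, 8.76 and 7.52 to 0.442, 0.259 and 0.217 CPM (-4.39 ± 0.38, adjusted p = 0.000158). Of 32 postsynaptic density genes 1 rose and 1 fell (6.25%, near the 6.41% of all genes). Both were lost without saline library 2 or 3 or SHNK library 2 or 3. Of 13 pentraxins, cerebellins and their partners 2 fell (15.4%), and 1 without SHNK library 2 or 3.

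Ion channels of excitability moved in both directions. On a list of 61 potassium channel genes 5 rose and 2 fell (11.5%, against 6.41% of all genes). On a list of 33 sodium, calcium and HCN channel genes 4 rose and 5 fell (27.3%). The latter were 3 and 3 without saline library 3, and 1 and 1 without saline library 2, SHNK library 2 or SHNK library 3. The potassium channel rises were 3 without those last 3 libraries, and the falls 4 without saline library 1 or 3, 3 without saline library 2 or SHNK library 1 and 1 without SHNK library 3. Kcnab1, an auxiliary subunit that speeds channel inactivation, rose from 85.1, 65.1 and 65.3 to 105, 116 and 125 CPM (0.68 ± 0.11, adjusted p = 0.00496). Scn1a, a main axonal sodium channel, rose from 74.1, 68.3 and 80.8 to 108, 116 and 111 CPM (0.59 ± 0.098, adjusted p = 0.00525). Kcnip4, which binds A-type potassium channels, rose by 0.57 ± 0.10 (adjusted p = 0.00743). Cacnb3, a calcium channel beta subunit, fell from 141, 255 and 196 to 81.1, 73.4 and 70.5 CPM (-1.39 ± 0.18, adjusted p = 0.000909), with non-stressed values of 109, 100 and 142 CPM. These 4 calls held in each of the 9 fits.

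Activity and stress genes moved in both directions. Arc, an immediate early gene of synaptic plasticity, was at 14.6, 16.8 and 17.1 CPM with saline and at 9.67, 9.15 and 8.66 CPM with SHNK (-0.82 ± 0.13, adjusted p = 0.00496), a call kept with each library left out. Fos, the standard marker of recent activity, ranged from 31.9 to 54.7 CPM and from 28.8 to 63.7 CPM and did not differ beyond that spread (0.030 ± 0.30, adjusted p = 0.972). Of 39 immediate early genes 4 rose and 2 fell (Arc and Nr4a2), or 15.4% called against 6.41% of all genes. The rises were Dusp1, Dusp6, Jun and Rheb, and they were down to 2 without SHNK library 1, 1 without saline library 2 or SHNK library 3 and 0 without SHNK library 2. Dusp1, a phosphatase that shuts off MAP kinases, rose from 41.6, 46.3 and 36.7 to 77.9, 74.6 and 51.4 CPM (0.71 ± 0.14, adjusted p = 0.0118; 0.0627 without SHNK library 2). Among 26 genes of the glucocorticoid response 4 rose and 1 fell (19.2%). They included the kinase gene Sgk1 (0.44 ± 0.085, adjusted p = 0.0105; 0.0573 without SHNK library 2) and the receptor Nr3c1 (0.32 ± 0.072, adjusted p = 0.0195; 0.0880, 0.0508, 0.0793 and 0.0816 without saline library 2 or 3 or SHNK library 2 or 3), while Fkbp5 did not pass (0.040 ± 0.15, adjusted p = 0.911). Rises on that list were 2 without saline library 2 or 3 or SHNK library 3 and 0 without SHNK library 2. Ciart, a repressor in the circadian clock, rose from 44.7, 38.9 and 46.0 to 63.4, 63.5 and 63.1 CPM (0.55 ± 0.088, adjusted p = 0.00461), 1 of 3 rises among 19 clock genes (15.8%). With saline library 2, SHNK library 2 or SHNK library 3 left out it was the 1 call there.

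Growth factor, Wnt and matrix genes split by member. Igf1, insulin-like growth factor 1, rose from 8.34, 7.86 and 8.11 to 12.3, 14 and 16.5 CPM (0.82 ± 0.14, adjusted p = 0.00590), with 9.12, 11.1 and 11.7 CPM in non-stressed libraries. Bdnf did not pass (0.29 ± 0.11, adjusted p = 0.123). On the Wnt list 11 of 41 fell and 1, Lef1, rose (29.3% called, against 6.41% of all genes). There were 5, 7, 4 and 2 falls without saline library 2 or 3 or SHNK library 2 or 3. The rise of Lef1 was not called without non-stressed library 1, any 1 saline library or SHNK library 2 or 3 (adjusted p = 0.0512 to 0.214). Wif1, a secreted inhibitor of Wnt proteins, fell from 14.9, 25.7 and 15.4 to 6.79, 5.23 and 6.76 CPM (-1.58 ± 0.20, adjusted p = 0.000994). Rspo4, a secreted enhancer of Wnt signalling, fell from 2.08, 7.60 and 4.65 to 0.778, 0.736 and 0.652 CPM (-2.72 ± 0.41, adjusted p = 0.00347). For both, SHNK values overlapped the non-stressed ones, which ran from 4.92 to 6.36 CPM for Wif1 and from 0.417 to 0.908 CPM for Rspo4. Mmp14, a membrane-bound metalloprotease that cleaves collagen, differed from that pattern. It was at 60.0, 54.6 and 49.6 CPM with saline, at 31.5, 31.5 and 28.6 CPM with SHNK and at 55.2, 46.4 and 52.9 CPM without stress (-0.84 ± 0.10, adjusted p = 0.000570). Of 49 axon guidance and adhesion genes 6 fell and 3 rose (18.4%, against 6.41% of all genes), and 4 and 3 calls in all were left without SHNK library 2 or 3. The semaphorin receptor Nrp2 was at -1.65 ± 0.26 (adjusted p = 0.00452) and the Eph receptor Epha4 at 0.49 ± 0.086 (adjusted p = 0.00661), both called in all 9 fits.

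**Figure D5:**
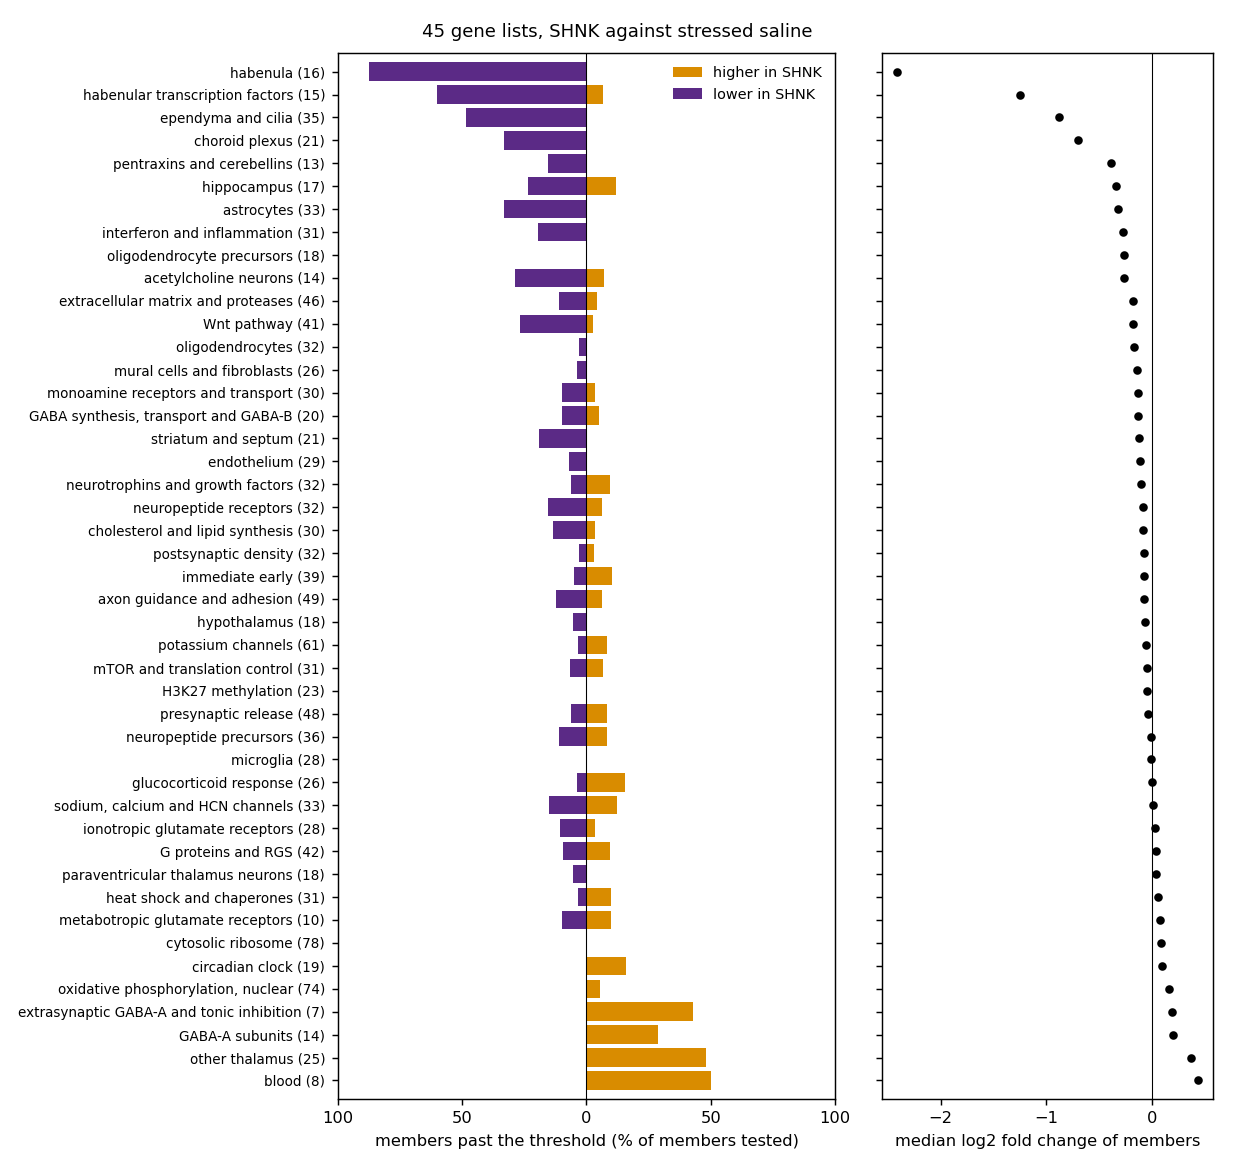
Share of tested members called higher (orange, right) or lower (purple, left) in SHNK for each of 45 gene lists, with the number tested in brackets, and the median log2 fold change of the same members. Habenula genes have the lowest median (-2.42), habenular transcription factors (-1.25), ependyma and choroid plexus genes follow, and most synaptic and metabolic lists sit near 0.

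Genes with the most reads moved by small amounts. Calm2, a calmodulin gene, rose from 3280, 3180 and 3340 to 4070, 4600 and 5500 CPM (0.53 ± 0.10, adjusted p = 0.00934), and Ywhah, a 14-3-3 protein, from 2700, 2550 and 2460 to 3180, 3520 and 3990 CPM (0.47 ± 0.087, adjusted p = 0.00861). Nnat, which encodes the proteolipid neuronatin, fell from 1090, 1120 and 1180 to 805, 751 and 779 CPM (-0.54 ± 0.081, adjusted p = 0.00347). All 3 held in each of the 9 fits. Of 74 nuclear genes of oxidative phosphorylation 4 rose (5.41%, near the 6.41% called over all genes), with a median of 0.17 and 67 above 0, and the 4 calls were lost without saline library 1 or 2 or SHNK library 2 or 3, while there were 7 without non-stressed library 2 and 9 without SHNK library 1. Of 78 ribosomal protein genes 0 were called by edgeR or DESeq2 and 1 by limma voom, with 4 at an unadjusted p under 0.05 and 59 above 0. The 4 globin genes Hba-a1, Hba-a2, Hbb-bs and Hbb-bt rose by 0.47 to 0.57, with no call left without saline library 1 or 2 or SHNK library 2 or 3. Their near-identical copies share reads, and the amount of blood in a sample was not measured otherwise. Of 31 interferon and inflammation genes 6 fell (19.4%), among them complement C4b (-1.37 ± 0.22, adjusted p = 0.00496), which alone passed in all 9 fits. The 6 were 3 without SHNK library 1, 2 without saline library 1 or 2 and 1 without saline library 3 or SHNK library 2 or 3.

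Histone H3K27 methylation, which silences genes through the Polycomb complex, was covered by 23 genes. Of these 0 were called by edgeR, where 6.41% of all genes were. Limma voom called 0 and DESeq2 1, and 3 were at an unadjusted p under 0.05. The methyltransferase genes Ezh1 and Ezh2 were at -0.15 ± 0.097 and -0.41 ± 0.20, and the demethylase genes Kdm6a and Kdm6b at 0.16 ± 0.16 and -0.24 ± 0.18 (adjusted p = 0.385, 0.236, 0.588 and 0.471). Gal, the galanin precursor, and Mtor, the growth kinase, were at 0.26 ± 0.11 and 0.070 ± 0.10 and did not pass either (adjusted p = 0.165 and 0.735). A p above the threshold leaves the size of these differences unsettled within their errors.

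Set beside non-stressed mice given saline, the SHNK libraries gave few calls by the same test. A low count of calls does not show that the groups were alike. Of 18194 genes 1 was called (0.0055%), Mmp14 (-0.75, adjusted p = 0.0477), although 3338 were at an unadjusted p under 0.05. DESeq2 called 1004, and edgeR called 749 without non-stressed library 2, 520 at an adjusted p under 0.1, 8 without saline library 1 or 2, 3 without SHNK library 2, 2 without non-stressed library 1, and no gene at all without non-stressed library 3 or SHNK library 1 or 3. Of the 446 genes that rose against stressed saline, the non-stressed mean lay between the defeated groups for 425, and 336 had every SHNK value above every non-stressed value. Of the 721 that fell it lay between for 525, and 327 had every SHNK value below every non-stressed value. Over all 18194 tested genes the non-stressed mean lay between for 7612, and the SHNK values were all above for 1788 and all below for 2096. The called genes were chosen on the same SHNK libraries, so nothing is read from the difference. Tac2 was at -4.37 against non-stressed saline (adjusted p = 0.0686), Htr5b at -3.36 (adjusted p = 0.0686) and the habenula list at a median of -0.75. The astrocyte list was at a median of -0.315. Gfap at -0.37 (adjusted p = 0.533) and Ccdc153 at 0.28 (adjusted p = 0.393) did not pass. The 2 comparisons share the SHNK libraries, so their values are given side by side only.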

How the data were processed

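RNA was extracted with a Direct-zol kit and libraries were made from 100 ng of total RNA with SMARTer Ultra low RNA and TruSeq reagents, per the labels' protocols. The submitters' processing notes name Trimmomatic 0.38, HISAT2, StringTie, GRCm38 and mm10. The read counter and its use of strand are not stated there, so overlapping genes and near-identical copies are uncertain. Whole read counts for each gene symbol were deposited in a single table and used unchanged.

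Counts were tested with edgeR 4.0.16 in R 4.3.3: a quasi-likelihood fit of the 3 groups over 9 libraries, with TMM scaling and edgeR's low-count filter (minimum count 10, minimum total 15), which removed 762 symbols. P-values were adjusted by Benjamini-Hochberg over all 18194 genes. Fold changes are log2, SHNK minus stressed saline, with standard errors. CPM values are TMM-scaled, and log2 CPM uses a prior count of 2. The common dispersion corresponds to a biological coefficient of variation of 0.132. The code was tested on simulated data.

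Genes named were the 15 largest rises and falls among called genes whose mean log2 CPM was 1 or more, with non-overlapping groups and a gene name, the 10 called genes with the most reads in each direction, up to 4 called members a list and direction with the smallest p, and 22 genes of prior interest. Others (Foxj1, Ttr, Slc1a2, Glul, Gbx2 and list members in counts of 5 or fewer) were chosen after their values were seen. Some named genes are not reported here. The 45 lists and the members were chosen with earlier results of these data known and received no test. Alternatives were DESeq2 1.42.0, limma 3.58.1 voom, other scalings, filters and thresholds, the 6 libraries alone, a replicate block, and each library left out. Coordinates and promoters are RefSeq's for GRCm38.p6, matched by symbol for 17814 genes.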

Additional observations from a re-analysis of the deposited data

How the results depend on the processing

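None of the called named genes reversed direction under any alternative run. Against stressed saline, DESeq2 called 2004 genes, limma voom 2377, an adjusted p under 0.1 gave 2182, and a further requirement of 1.5-fold left 554. Leaving out 1 library gave 176 to 1385 calls, with the lowest counts without SHNK library 3 (176) and SHNK library 2 (238). Without those libraries 73 and 85 of the 190 called named genes stayed past the threshold. Other scalings, filters and the 6 libraries alone gave 1064 to 1413, and other scalings moved the median of all genes by 0.0063 or -0.006. Against non-stressed saline, where 1 gene was called, DESeq2 called 1004, the 6 compared libraries alone 9, an adjusted p under 0.1 gave 520, upper-quartile scaling, no filter and a minimum of 1 CPM each gave 0 at the main threshold, and leaving out 1 library gave 0 to 749. The cause of these differences was not tested. Deviations of same-numbered libraries had correlations from -0.1 to 0.106, and 4 of 9 libraries were closest to one of their own number. With 3 libraries a group these values cannot tell whether equal numbers mark a shared batch. A replicate block gave 878 calls against stressed saline, 854 of them shared with the fit without it, and 6 against non-stressed saline. Under the block 23 of the 190 called named genes missed the threshold, among them Npffr1 (adjusted p = 0.0555), Chrna4 (0.0621), Jun (0.0531), Hbb-bt (0.0523), Adm (0.0547), Cks2 (0.0501) and Srpx2 (0.0665). Depth limits the genes that were nearly absent with SHNK, such as Pou4f1 and Chat, whose intervals cover counting error only.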

Other observations

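Gene families defined by their symbols were also counted, and they were chosen after the data were seen. Dnah6, Dnah11 and Cfap126 were already among the called ependymal genes, so the counts below are no separate support for those above. Of 14 tested axonemal dynein heavy chain genes (Dnah), 6 fell (42.9%) and 0 rose, with a median log2 fold change of -0.92. Of 30 cilia and flagella associated genes (Cfap), 7 fell (23.3%) and 0 rose, with a median of -0.66. Some abundant housekeeping families had rises only. Of 20 genes of the vacuolar proton pump (Atp6v) 4 rose (20%), with a median of 0.19. Of 8 genes of 14-3-3 proteins (Ywha) 3 rose (37.5%), with a median of 0.31. Of 33 ubiquitin-conjugating enzyme genes (Ube2) 5 rose (15.2%), with a median of 0.12. Of 377 zinc finger genes (Zfp) 1 rose and 7 fell, a share of 2.12% called against 6.41% of all genes. Solute carriers (Slc) gave 7 rises and 24 falls among 282 (11%). These calls are those of the edgeR fit, and several depended on single libraries. Of the 9 fits that each left out a library, Dnah6 was called in 1, Dnah11 in 3, Cfap126 in 5, Cfap65 in 7, Ywhaz in 2 and Ywhah in 9.

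Among genes with a promoter window the X-box half-site stood in 36 of 564 called lower (6.38%), in 9 of 330 called higher (2.73%) and in 4.20% of all tested genes. The called genes differ in base composition, and no test was made.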
